A study of Mus musculus with 2 samples.

Results

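Cathepsins, legumain and cystatins are the proteases of the lysosome and their protein inhibitors. The set described here holds 10 genes, the cysteine cathepsins *Ctsb*, *Ctsc*, *Ctsh*, *Ctsl*, *Ctss* and *Ctsz*, the aspartic cathepsin *Ctsd*, legumain (*Lgmn*), and the cystatins *Cst3* and *Cst7*. Its members are all probe sets of the array whose annotation names exactly 1 gene, that gene being 1 of the 10, which gave 20 probe sets of the 45037 non-control ones on the array. The 10 genes stand among 18193 genes named in this way. Transcripts of brain mononuclear cells from CD47 KO and WT mice were read on a whole-genome Affymetrix mouse array, on which each gene is covered by 1 or more probe sets of short oligonucleotides. The CD47 KO mice (*Cd47*-/-) carry a constitutive knockout of the ligand of SIRPα, and RNA of 6 males aged 12 to 16 wks was pooled. RNA of 7 WT males aged 10 to 15 wks formed the other pool. The sources used here do not give the genetic background of the mice. Each genotype was read on 1 array without replicates, and the values below therefore carry neither a p-value nor an error between animals.

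Cysteine cathepsins and cathepsin D degrade proteins delivered to lysosomes by phagocytosis and autophagy, and microglia, the phagocytes of the brain, are rich in them. They are made as inactive precursors, and legumain, which cuts after asparagine, helps to mature several of them. Cathepsin S and legumain also act on the invariant chain during antigen presentation, and cathepsin C removes dipeptides from the precursors of granule serine proteases. Cystatin C, encoded by *Cst3*, is secreted and blocks cysteine cathepsins outside the cell, whereas cystatin F, encoded by *Cst7*, is made by immune cells, is targeted in part to lysosomes and inhibits cathepsin C after its own proteolytic activation.

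Of the 10 genes, 8 have an entry in the RefSeq promoter table (GRCm38.p6), with 9 entries in all. Each entry covers 250 bases before the annotated start and 50 bases from it. *Ctsb* and *Ctsh* have no entry. The 250 bases before the start are printed for *Cst7*, the only member past 2-fold, for *Ctsc*, which encodes a target of its product, and for *Ctsd*, the member entry with the longest match to the motif of lysosomal gene regulators. Capitals mark matches to the motifs CACGTG, TCACGTGA (which contains CACGTG), GAGGAAGT and TATAAA, each searched on both strands.
*Cst7*, chr2:150570165-150570414, plus strand: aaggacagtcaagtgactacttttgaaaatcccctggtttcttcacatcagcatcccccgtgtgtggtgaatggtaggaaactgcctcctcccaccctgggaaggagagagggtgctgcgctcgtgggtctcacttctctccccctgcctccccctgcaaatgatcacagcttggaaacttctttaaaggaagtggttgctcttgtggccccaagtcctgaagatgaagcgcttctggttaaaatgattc
*Ctsc*, chr7:88277835-88278084, plus strand: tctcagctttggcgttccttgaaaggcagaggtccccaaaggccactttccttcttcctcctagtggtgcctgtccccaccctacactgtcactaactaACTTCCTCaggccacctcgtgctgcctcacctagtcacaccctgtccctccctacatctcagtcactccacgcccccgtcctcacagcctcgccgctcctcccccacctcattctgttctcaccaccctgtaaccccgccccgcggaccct
*Ctsd*, chr7:142387828-142388077, minus strand: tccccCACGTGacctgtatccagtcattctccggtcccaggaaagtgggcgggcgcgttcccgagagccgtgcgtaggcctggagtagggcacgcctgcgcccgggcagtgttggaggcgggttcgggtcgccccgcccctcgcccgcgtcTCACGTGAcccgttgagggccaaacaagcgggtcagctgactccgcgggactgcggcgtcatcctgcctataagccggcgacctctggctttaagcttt
The *Cst7* window holds no exact match to these motifs, and near matches were not searched. The E-box core CACGTG, part of the element bound by TFEB and TFE3, occurred in 3 of the 9 member entries, those of *Ctsd*, *Ctsl* and *Lgmn*, and in 7.15% of 32851 mouse promoter entries of the same length. Its longer form TCACGTGA occurred only in *Ctsd* among the members, at bases -99 to -92 from the start, and in 0.974% of all entries. GAGGAAGT, a site of the type bound by PU.1, the myeloid transcription factor, occurred in *Ctsc* at bases -151 to -144 and in *Ctss* across the start, against 3.2% of all entries. TATAAA occurred in *Ctss* and *Lgmn*, against 13.6% of all entries. A match is a description of the sequence, and binding was not measured.

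Brightness of a probe set is given as its MAS5 signal, on a linear scale, scaled so that both arrays have a trimmed mean of 500.002. All Log2 ratios are CD47 KO over WT, taken from these signals with no offset. Probe sets at or above the median of their array (146 in CD47 KO, 161 in WT) on at least 1 array are called expressed, and all 20 member probe sets reached it on both. *Cd47* itself had signals of 1688 in CD47 KO cells and 5816 in WT cells on its brightest probe set, a Log2 ratio of -1.79, and its 5 probe sets lay between -1.86 and -1.45. Their positions relative to the targeted exons are not known here. Homeostatic microglia markers were bright on both arrays, as were genes of neurons and astrocytes, so the preparation was mixed.

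*Cst7* was the only member gene whose expression was markedly (>2-fold) increased in CD47 KO cells. Its single probe set (1419202_at) had a signal of 2136 in CD47 KO cells and 678 in WT cells, 3.15-fold higher, with a Log2 ratio of 1.65. Only 1 *Cst7* probe set is named in the annotation, so the value has no check within the gene. In pooled RNA of mixed cells, more cells of a type and more RNA per cell cannot be told apart. The pooled SD of Log2 ratios between probe sets of 1 gene was 0.36 in the brightest 25% of genes, and the *Cst7* value exceeded it. That SD holds no spread between animals, pools or arrays. Among the 5872 genes whose brightest probe set reached the 75th percentile on both arrays, *Cst7* had the second highest Log2 ratio, and it ranked 116 among all 11695 expressed genes, where dim probe sets scatter widely. The 75th percentile was 532 in CD47 KO cells and 541 in WT cells.

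Past 2-fold, 1 of 10 members was increased and 0 were decreased on the brightest probe set, while 3.56% of all expressed genes were increased and 5.46% decreased. In the genes at or above the 75th percentile on both arrays, where all 10 members lie, these shares were 0.204% and 0.664%. Counted by probe set, 1 of the 20 was past 2-fold higher and 0 lower, against 3.95% and 5.49% of the expressed probe sets with 1 gene name. The count of members past 2-fold therefore rests on *Cst7* alone. The paper had already reported *Cst7* as past 2-fold in these cells, so the count beside these shares is no independent support.

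**Figure D1:**
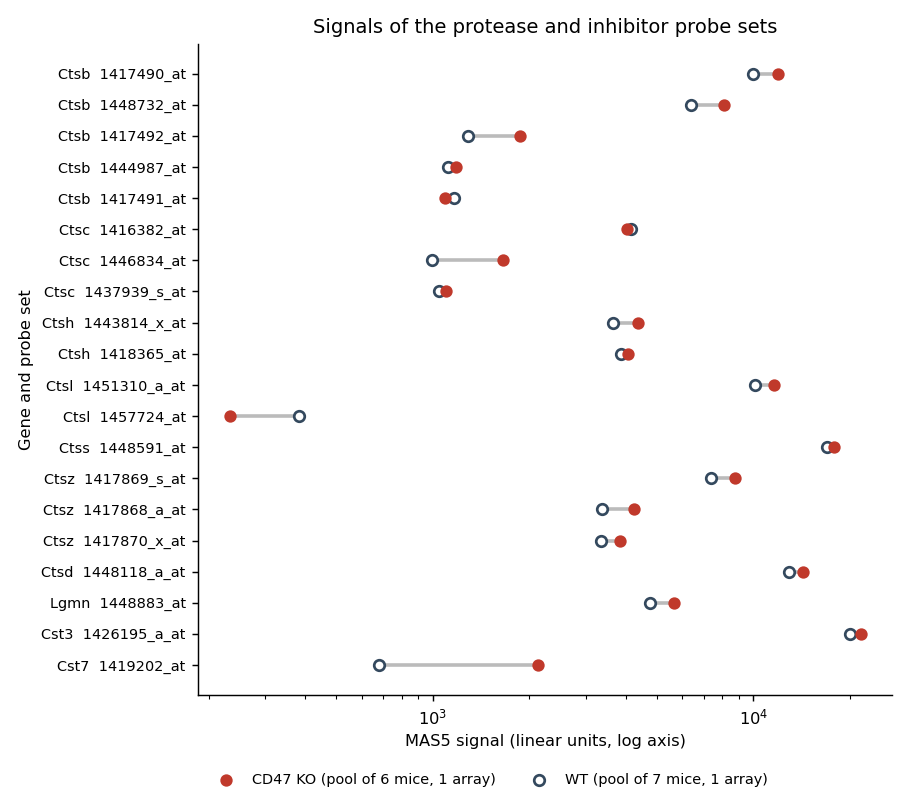
MAS5 signal (log axis) of each of the 20 probe sets of the 10 genes in CD47 KO cells (filled red) and WT cells (open), 1 array of pooled RNA per genotype. The *Cst7* points stand far apart, at 2136 and 678, and most other pairs lie close together.

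The other cystatin did not share the size of this difference. *Cst3*, the gene of cystatin C, had signals of 21628 in CD47 KO cells and 19973 in WT cells (1426195_a_at), a Log2 ratio of 0.11. The Log2 ratio of *Cst7* was 1.54 above that of *Cst3*. Signals of different probe sets are not on a common scale, so the much brighter *Cst3* probe set does not show that its transcript was more abundant.

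The proteases that cystatin F can inhibit had small Log2 ratios. *Ctsc*, the gene of cathepsin C, had a signal of 4034 in CD47 KO cells and 4156 in WT cells on its brightest probe set (1416382_at), a Log2 ratio of -0.04, the lowest of the 10 genes on this basis. The second *Ctsc* probe set (1437939_s_at) gave 1103 in CD47 KO cells and 1045 in WT cells, with 0.08. The third (1446834_at) differed, with 1651 in CD47 KO cells and 997 in WT cells and a Log2 ratio of 0.73. The 3 *Ctsc* probe sets thus spanned 0.77, more than the pooled SD between probe sets of 1 gene, and the gene had -0.04 on the brightest and 0.25 as a mean.

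On the brightest probe sets, the Log2 ratio of *Cst7* was 1.70 above that of *Ctsc*, 1.59 above that of *Ctss*, 1.46 above that of *Ctsl*, and 1.40 above those of *Lgmn* and *Ctsh*. Expressed as a ratio of folds, *Cst7* relative to *Ctsc* was 3.24-fold higher in CD47 KO cells than in WT cells. This uses the *Ctsc* probe set with the lowest Log2 ratio. With the mean over the *Ctsc* probe sets the difference was 1.40, and it is smaller still on 1446834_at, which had 0.73. Each of the 5 differences exceeded the pooled SD of 0.36, although it carries the probe effects of both genes. In these mixed cells the inhibitor transcript and the protease transcripts need not come from the same cell.

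*Ctsb*, the gene of cathepsin B, an abundant lysosomal endopeptidase, was read by 5 probe sets. The brightest (1417490_at) had signals of 11884.5 in CD47 KO cells and 9963 in WT cells, a Log2 ratio of 0.25. The next (1448732_at) had 8074 in CD47 KO cells and 6389 in WT cells, with 0.34. These bright probe sets were both somewhat higher in CD47 KO cells. Of the dimmer 3, 1417492_at had 1871 in CD47 KO cells and 1291 in WT cells, with 0.54. The probe set 1444987_at had 1180 in CD47 KO cells and 1119 in WT cells, with 0.08, and 1417491_at had 1095 in CD47 KO cells and 1166 in WT cells, with -0.09. The *Ctsb* probe sets therefore ran from -0.09 to 0.54, with an SD of 0.24 and 4 of 5 higher in CD47 KO cells.

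*Ctsz*, the gene of cathepsin Z, a carboxypeptidase, gave the most even set of values. Its 3 probe sets had signals of 8764, 4236 and 3826 in CD47 KO cells and 7367, 3360 and 3352 in WT cells, in the same order of probe sets. The Log2 ratios were 0.25, 0.33 and 0.19, with an SD of 0.07, and all 3 were higher in CD47 KO cells. The names of these probe sets (1417869_s_at, 1417868_a_at and 1417870_x_at) mark probes that can be shared between transcripts, and they may overlap.

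*Ctsh*, the gene of cathepsin H, an aminopeptidase, had signals of 4352 in CD47 KO cells and 3644 in WT cells on 1443814_x_at, a Log2 ratio of 0.26. Its second probe set, 1418365_at, of nearly the same brightness, had 4051 in CD47 KO cells and 3865 in WT cells, with 0.07. The _x_at name marks probes that can bind related sequences, and the higher *Ctsh* value comes from it.

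*Ctsl*, the gene of cathepsin L, a potent endopeptidase, was the member whose probe sets differed most. The bright probe set (1451310_a_at) had 11572 in CD47 KO cells and 10095 in WT cells, a Log2 ratio of 0.20. The other (1457724_at) was dim, at 233 in CD47 KO cells and 383 in WT cells, with -0.72, and it was the only member probe set below the 75th percentile of its array. Pooled SDs between probe sets of 1 gene grew towards low signals, to 0.59 in the group of genes next to the dimmest 25%. The direction of *Ctsl* depends on which probe set is read, and its mean was -0.26.

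*Ctss*, the gene of cathepsin S, which stays active at neutral pH and is typical of microglia and macrophages, had 17825 in CD47 KO cells and 17007 in WT cells (1448591_at), a Log2 ratio of 0.07. *Ctsd*, the gene of the aspartic cathepsin D, had 14279 in CD47 KO cells and 12910 in WT cells (1448118_a_at), with 0.15. *Lgmn*, encoding legumain, had 5660 in CD47 KO cells and 4754 in WT cells (1448883_at), with 0.25. Each of these genes has 1 probe set, and each value lay within the pooled SD of 0.36.

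**Figure D2:**
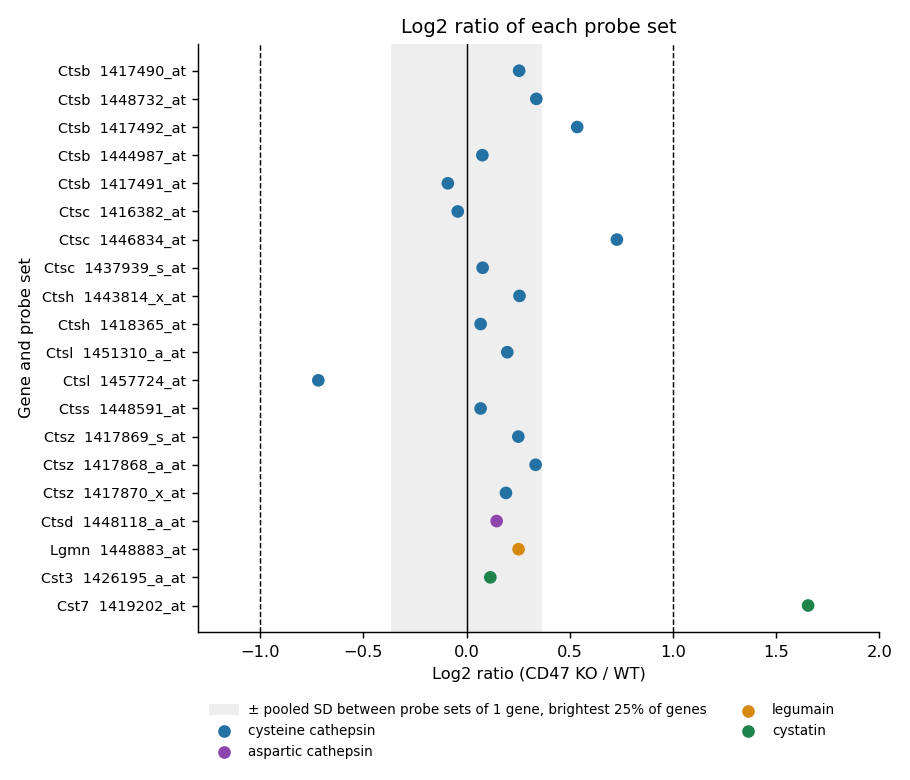
Log2 ratio (CD47 KO/WT) of each of the 20 probe sets, coloured by the class of the gene, with dashed lines at 2-fold. The grey band is ± the pooled SD of 0.36 between probe sets of 1 gene in the brightest 25% of genes, and 4 probe sets lie outside it, those of *Cst7* (1.65), *Ctsc* (0.73), *Ctsb* (0.54) and, on the lower side, *Ctsl* (-0.72).

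In order of their Log2 ratio on the brightest probe set, *Cst7* was followed by *Ctsh*, *Ctsb*, *Lgmn*, *Ctsz*, *Ctsl*, *Ctsd*, *Cst3*, *Ctss* and *Ctsc*. From *Ctsh* to *Ctsc* the values ran from 0.26 to -0.04, a range below the pooled SD of 0.36, so the order of these 9 genes cannot be told from the spread between probe sets. Only the step between *Cst7* and *Ctsh* was larger.

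By direction alone, 9 of 10 members were higher in CD47 KO cells on the brightest probe set, a count that was 8 after quantile or loess normalization, where *Ctss* was slightly lower, and 6 when ratios were centred on the homeostatic microglia markers. Of all expressed genes 50.3% were higher, and 54.7% of those at or above the 75th percentile on both arrays. By probe set, 17 of 20 were higher, against 50.7% of expressed probe sets. The median Log2 ratio was 0.22 over the 10 members and 0.20 without *Cst7*, against 0.003 over all expressed genes and 0.03 over the genes at or above the 75th percentile on both arrays.

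The markers of homeostatic microglia were also higher in CD47 KO cells. Of 20 listed, 19 had a named probe set, and all 19 were expressed and higher. They had a median Log2 ratio of 0.16 and signals summing to 180774 in CD47 KO cells and 158324 in WT cells. Astrocyte markers were higher as well (10 of 11, median 0.28), and astrocytes also express *Cst3*. Their signals summed to 47679 in CD47 KO cells and 40027 in WT cells. Border-associated macrophage markers were lower in CD47 KO cells, with a median of -0.47 over 7 genes. They summed to 3211 in CD47 KO cells and 4540 in WT cells. Of 9 monocyte genes 8 were lower, with a median of -0.40, summing to 21715 in CD47 KO cells and 26946 in WT cells. Over genes that reached the array median on both arrays, the medians were -0.37 (6 macrophage genes) and -0.34 (8 monocyte genes). Markers of fibroblasts and meninges had a median of -0.93 (9 of 11 lower), and those of pericytes and smooth muscle -0.61 (7 of 9 lower). Endothelial markers had -0.47 (9 of 11 lower) and choroid plexus markers -0.39 (5 of 7 lower). Neuron and oligodendrocyte markers had 0.07 and 0.05. The part of these cell types in the protease values was not tested. Relative to the median of the microglia markers, the Log2 ratio of *Cst7* was 1.49, while those of the other 9 members lay between -0.20 and 0.10.

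**Figure D3:**
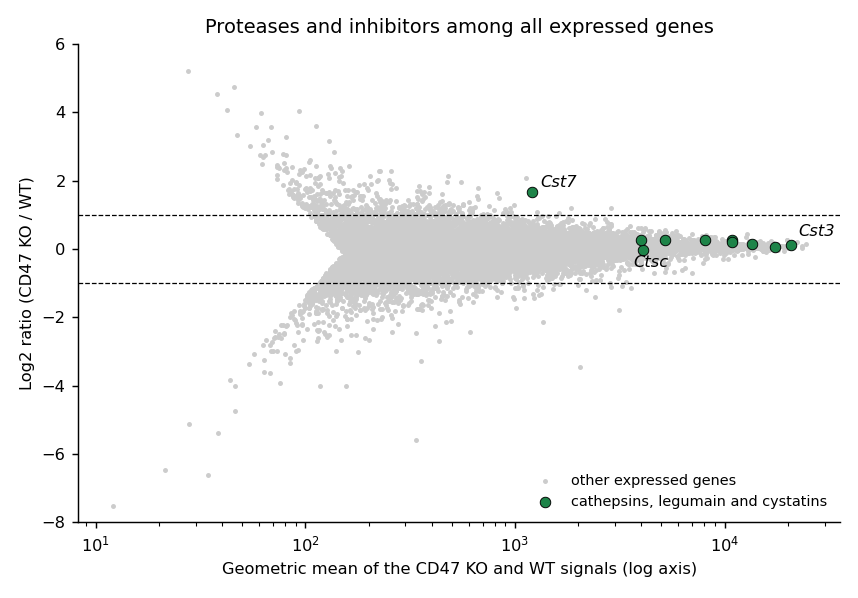
Log2 ratio (CD47 KO/WT) of the brightest probe set of each of the 11695 expressed genes (grey) against the geometric mean of its signals (log axis), with the 10 proteases and inhibitors in green and dashed lines at 2-fold. *Cst7* (1.65) lies above most genes of its brightness, with *Pde7a* (2.06) higher still. The other members lie close to 0 among the bright genes.

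Cystatin F is also made by cytotoxic lymphocytes and dendritic cells. Of 10 NK and cytotoxic lymphocyte markers listed, 9 had a named probe set and 5 were expressed, 4 of them higher. The 5 had a median Log2 ratio of 0.15 and signals summing to 6332 in CD47 KO cells and 5744 in WT cells. The dendritic cell markers had 7 expressed of 10 listed, 4 higher and 3 lower, with a median of 0.18. Their signals summed to 13823 in CD47 KO cells and 12438 in WT cells, most of it from *Siglech*, which microglia share. Past 2-fold, 1 was higher and 1 lower, and each reached the array median on 1 array only. Among the 5 dendritic cell markers that reached it on both arrays, 3 were higher, and the median was again 0.18. Of 10 T cell markers listed, 8 had a named probe set and 6 were expressed. The 6 had a median of -0.21, with sums of 4345 in CD47 KO cells and 3922 in WT cells. Of these, *Cd3e* and *Cd28* reached the array median in WT cells only. The 4 that reached it on both arrays had a median of 0.52, with 3 higher in CD47 KO cells, so the sign depends on the threshold. No marker probe set had a signal of 0, since MAS5 signals stay above it. The share of these cells in the *Cst7* signal was not tested.

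*Cst7* is also 1 of the genes typical of CD11c+ activated microglia. Of the 18 other such genes listed here, 16 had a named probe set, and all 16 were expressed. Of these, 4 (*Mmp12*, *Gpnmb*, *Ch25h* and *Itgax*) reached the array median in CD47 KO cells only. They passed the threshold through the array on which they are high. Of the 12 that reached the median on both arrays, 10 were higher in CD47 KO cells, against 50.4% of all genes kept in this way, and the median Log2 ratio was 0.54. The 2 lower genes were *Cybb* and *Lgals3*. *Cybb* had 533 in CD47 KO cells and 820 in WT cells, with -0.62, and its 3 probe sets ran up to 0.04. *Lgals3* had 2273 in CD47 KO cells and 2625 in WT cells, with -0.21. Past 2-fold, 3 were increased and 0 decreased, against 1.28% and 2.42% of those genes. These 3 are *Igf1*, *Apoc1* and *Lpl*, which the paper had already reported as past 2-fold in these cells. The counts on this list are therefore no independent support. *Igf1*, a growth factor gene, had 1088 in CD47 KO cells and 278 in WT cells, with 1.97. *Apoc1*, an apolipoprotein gene, had 396 in CD47 KO cells and 169.5 in WT cells, with 1.23. *Lpl*, the lipoprotein lipase gene, had 1545 in CD47 KO cells and 632 in WT cells, with 1.29, and its second probe set gave 0.44.

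By closeness of the Log2 ratio, the genes most like *Cst7* among those at or above the 75th percentile on both arrays were *Lpl* with 1.29, *Pde7a*, a phosphodiesterase gene, with 2.06, and *Fam214a* with 1.21, each on its brightest probe set. The 7 *Pde7a* probe sets ran from -1.31 to 2.06 with a mean of 0.13, and the other *Fam214a* probe set gave 0.52. The brightest probe sets lay 0.37, 0.41 and 0.44 from *Cst7* over the 2 arrays, and 0 of the 5862 genes compared lay within 0.05. For members of small change this likeness selects little. Within 0.05 of *Ctsh* there were 549 genes, the closest *Mmp24*, *1810013L24Rik* and *Rit1*. Within 0.05 of *Ctss* there were 925, the closest *Lrrn1*, *Serp1* and *Snx18*, and within 0.05 of *Ctsc* 779, the closest *Actr3*, *5031425E22Rik* and *Pag1*.

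The wider cathepsin family mostly lay below the signal threshold in these cells. Of 18 other genes listed, all had a named probe set and 6 were expressed, since the placental cathepsins and *Ctsk*, the gene of the osteoclast enzyme, lay below the array median. *Ctsa*, which encodes the serine carboxypeptidase that protects lysosomal sialidase, had 4694 in CD47 KO cells and 3713 in WT cells, a Log2 ratio of 0.34. *Ctsf*, a further cysteine cathepsin gene, had 1462 in CD47 KO cells and 1157 in WT cells, also 0.34. Past 2-fold, 0 were increased and 2 decreased, against 3.56% and 5.46% of all expressed genes. The 2 were the neutrophil granule protease gene *Ctsg* with -1.13 and the cathepsin B-like matrix protein gene *Tinagl1* with -1.11. The median of the 6 was 0.11, and it was -0.16 with no signal threshold.

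Of the other cystatins and related inhibitors, 16 of 19 listed genes had a named probe set and 4 were expressed, 2 higher and 2 lower. *Cstb*, the cytosolic cystatin B gene, had 14434 in CD47 KO cells and 13113 in WT cells, a Log2 ratio of 0.14. *Stfa2l1*, a stefin gene, had 1154.5 in CD47 KO cells and 921 in WT cells, with 0.33. *Stfa3*, another stefin gene, had 133 in CD47 KO cells and 461 in WT cells, with -1.79, and reached the array median in WT cells only. *Cst6*, the cystatin M gene, had -0.64. The median of the 4 was -0.25, and that of the 3 which reached the median on both arrays was 0.14. The increase past 2-fold of *Cst7* had no counterpart among these 4 genes.

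The serine proteases that cathepsin C activates did not move in 1 direction. Of 10 listed, 7 were expressed, 3 higher and 4 lower, and past 2-fold 0 were increased and 3 decreased, against 5.46% of all expressed genes decreased. The median of the 7 was -0.77. *Prtn3*, the proteinase 3 gene of neutrophils, had 846 in CD47 KO cells and 2113 in WT cells, a Log2 ratio of -1.32. *Ctsg* had 1952 in CD47 KO cells and 4261 in WT cells, and *Elane*, the neutrophil elastase gene, had 762 in CD47 KO cells and 1575 in WT cells, with -1.05. The 3 decreased genes all encode proteases of neutrophil granules, which are transcribed in neutrophil precursors. *Gzmk*, a lymphocyte granzyme gene, had 1004 in CD47 KO cells and 514 in WT cells, with 0.97, and the other granzymes, *Gzmb* and *Gzma*, had 0.54 and 0.15, with *Gzmb* above the array median in CD47 KO cells only. Neutrophil markers as a whole had a median of -0.20, with 7 of 9 lower and sums of 74732 in CD47 KO cells and 77406 in WT cells. The part of the cell mixture in these values was not tested.

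Genes that deliver the proteases to lysosomes or acidify them had small Log2 ratios. Of 22 listed, 21 were expressed, 17 higher and 4 lower, with 0 past 2-fold in either direction and a median of 0.13. Of all expressed genes 50.3% were higher, and 3.56% and 5.46% were past 2-fold higher and lower. A count of 0 of 21 is near the latter shares. *Tfeb*, the gene of a transcription factor of lysosomal genes, had 159 in CD47 KO cells and 94.8 in WT cells (0.74), and reached the array median in CD47 KO cells only. *Gnptab*, which encodes the enzyme that starts the mannose 6-phosphate tag on cathepsin precursors, had 788 in CD47 KO cells and 489 in WT cells (0.69) on the brightest of its 3 probe sets, which ran down to -0.52. *Gnptg*, its partner subunit gene, had 0.54. *Igf2r*, a receptor gene for the tag, had 282 in CD47 KO cells and 469 in WT cells (-0.73) on its brightest probe set, and 0.54 on the other. *M6pr*, the gene of the smaller receptor, had 0.17 and -0.02. The directions of *Gnptab*, *Igf2r* and *M6pr* therefore depend on which probe set is read. Centred on the microglia markers, the median of the 21 genes was -0.032.

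For the class II route in which cathepsin S and legumain act, 10 of 11 listed genes had a named probe set and 9 were expressed. Of the 9, 6 were higher and 3 lower, with 0 past 2-fold and a median of 0.08. Among all expressed genes 50.3% were higher, with 3.56% past 2-fold higher and 5.46% lower, so these counts are near the shares. *Cd74*, the gene of the invariant chain, which cathepsin S cuts, had 3187 in CD47 KO cells and 3102 in WT cells, a Log2 ratio of 0.04. *H2-Oa*, which encodes a chain of the modulator of peptide loading, had 0.39, and *H2-Eb1*, a class II chain gene, had -0.13. The peptide editor genes *H2-DMb2* and *H2-DMa* had 0.30 and -0.19 on their brightest probe sets, but their probe sets ran from -0.09 to 0.30 and from -0.19 to 0.32, so that neither has a settled direction. Cytosolic cysteine proteases of the calpain and caspase families and their partners had 2 of 7 expressed genes higher, against the same 50.3%. Their median was -0.14.

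**Figure D4:**
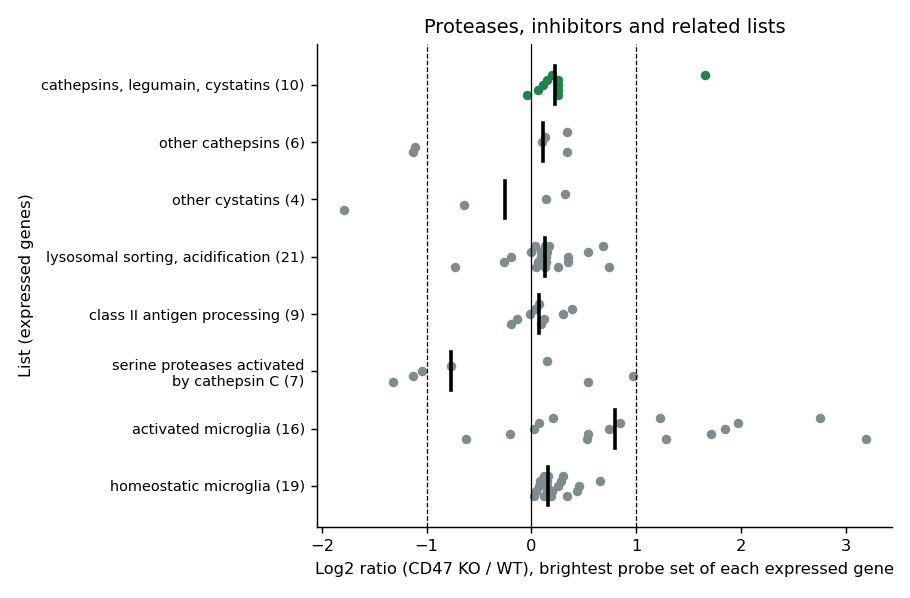
Log2 ratio (CD47 KO/WT) on the brightest probe set of each expressed gene (points) in the 10 proteases and inhibitors (green) and in related lists (grey), with the number of genes in parentheses, medians as bars and dashed lines at 2-fold. *Cst7* stands apart in its group at 1.65, activated microglia genes spread upwards to 3.20 (*Mmp12*, above the array median in CD47 KO cells only), and 3 serine proteases activated by cathepsin C lie below -1.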

How the data were processed

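RNA of brain mononuclear cells, collected at the interface of a Percoll gradient from digested whole brain, was pooled by genotype. From each pool, 20 ng was amplified (Ovation Pico WTA) for 1 array. The deposited intensity values are MAS5 signals that the authors made with Expression Console (version not given in the sources used). Values were scaled to equal trimmed means, and detection calls are not used here. Scaling sets the ratio of every gene, and amplification of little RNA adds noise that the arrays cannot measure.

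Names came from the platform annotation, with 34945 probe sets that carry 1 symbol. Symbols were updated through the gene identifier to RefSeq (GRCm38.p6). Log2 ratios were taken as log2(CD47 KO/WT). Each gene was represented by its expressed probe set with the highest mean signal. Named genes were all members, up to 4 largest changes of each related list, *Cd47*, the closest genes by Log2 ratio, and markers a result turned on. *Cd74*, *M6pr*, *Gzma*, *Gzmb*, *Itgax*, *Apoc1*, *Cybb* and *Lgals3* lie outside this rule and were named after their values were seen. The members and lists were chosen with earlier results of these data known. No protein sequences were used. The 12 alternatives changed the signal threshold, normalization, low signals or choice of probe set. The calculation was tested on simulated arrays. Python 3.11.15, pandas 2.3.3, numpy 2.4.6, statsmodels 0.14.6 and matplotlib 3.10.9 were used.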

Additional observations from a re-analysis of the deposited data

How the results depend on the processing

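Of the 12 alternatives, those of the signal threshold could not move a member, since the brightest probe set of each passed them all, and those of the probe set could not move *Cst7*, which has 1. Under the normalizations and the treatments of low signals *Cst7* had a Log2 ratio between 1.49 and 1.65, and 1 member was past 2-fold higher and 0 lower. The median of the members lay between 0.06 (centred on the microglia markers) and 0.22. *Ctsl* had -0.26 as the mean or the median over its probe sets and -0.72 without probe sets named _x_at, _s_at or _a_at, where only the dim one is left, and the difference between *Cst7* and *Ctsl* was then 1.92 and 2.37. Lists of few genes moved with the threshold. The median of the other cathepsins, 0.11 as reported, was -0.16 with no threshold and -0.28 over all probe sets. That of the other cystatins, -0.25 as reported, changed sign to 0.23 at the 75th percentile on at least 1 array and to 0.14 with the array median on both. That of the serine proteases, -0.77 as reported, was -0.31 with no threshold or over all probe sets. Centred on the microglia markers, lysosomal sorting genes had -0.032, against 0.13 as reported. A common centring cancels in the differences between genes. No paired analysis was possible because each genotype has 1 pooled sample. Precision is limited by the single array per genotype. The pooled SD of 0.36 is the spread between probe sets of 1 gene on the same 2 arrays. It holds no spread between animals, pools or arrays. For bright genes, differences below about 0.36 lay within that spread, and a larger difference is not thereby resolved.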
